A study of Mus musculus with 3 samples.

Results

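Secretory cells of the mouse colon that carry Spink4, Mptx1 and Retnlb transcripts were examined in 3 droplet single-cell RNA libraries. The mice were germ-free. In 1 library they are labelled PBS, in 1 they were colonized with BT WT and in 1 with BT mutant, so each group is a single library and all share the germ-free background. The labels give no meaning for BT, no mutation, and no strain, age, time after colonization or number of animals. A barcode was a member when it held at least 300 genes, at most 25% mitochondrial UMIs (unique molecular identifiers, 1 for each captured transcript), at least 1% of UMIs from Spink4, Mptx1 and Retnlb together, and at least 2% from 15 goblet cell genes. This rule found 105 of 16406 kept cells: 31 of 3198 in PBS, 32 of 7070 in BT WT and 42 of 6138 in BT mutant. The 15 goblet cell genes were Muc2, Tff3, Clca1, Fcgbp, Zg16, Agr2, Spink4, Spdef, Atoh1, Sytl2, Ccl9, Capn9, Bcas1, Galnt12 and Fer1l6. The rule uses measured values, so the levels of its genes are a description.

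Goblet cells make the colon's mucus, and those at the crypt base differ from those near the surface. Crypt-base secretory cells lie among the stem cells, and in the mouse colon they are known by Reg4 and Kit, taking the place that Paneth cells hold in the small intestine. Mptx1 encodes a mucosal pentraxin, Spink4 a Kazal-type protease inhibitor and Retnlb the resistin-like protein RELM-beta, which damages bacterial membranes. Agr2 encodes a disulfide isomerase needed to fold the mucin Muc2, and Reg4 a secreted lectin. Dissociated cells carry no position, so crypt position was not measured and the members are called Spink4/Mptx1 cells below.

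The 5 marker genes lie on the plus strand of 5 chromosomes in GRCm38 (GENCODE vM21). Spink4 spans positions 40920052 to 40931395 of chromosome 4, Mptx1 174330518 to 174332873 of chromosome 1, and Retnlb 48816856 to 48818892 of chromosome 16. Agr2 spans 35992907 to 36004087 of chromosome 12, and Reg4 98222156 to 98236748 of chromosome 3. RefSeq windows of 250 bases that end just before the annotated start (GRCm38.p6) are shown for Mptx1, which led in most PBS and BT WT members, for Agr2, found in nearly every member, and for Reg4, the deep crypt marker. The RefSeq start of Agr2 lies downstream of the GENCODE one. They are chr1:174330268-174330517, chr12:35992675-35992924 and chr3:98221906-98222155, all on the plus strand, written 5′ to 3′. Capitals mark matches to the motifs searched on both strands, and no matches overlap.

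Mptx1: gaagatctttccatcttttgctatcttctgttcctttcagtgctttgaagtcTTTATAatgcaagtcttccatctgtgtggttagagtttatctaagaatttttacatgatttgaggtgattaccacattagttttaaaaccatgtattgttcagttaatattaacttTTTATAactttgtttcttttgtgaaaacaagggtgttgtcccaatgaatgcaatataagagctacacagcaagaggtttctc

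Agr2: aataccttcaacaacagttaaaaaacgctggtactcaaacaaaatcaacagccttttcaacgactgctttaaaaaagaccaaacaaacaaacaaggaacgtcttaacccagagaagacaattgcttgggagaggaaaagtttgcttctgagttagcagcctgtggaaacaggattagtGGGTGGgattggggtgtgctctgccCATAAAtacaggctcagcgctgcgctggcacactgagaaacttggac

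Reg4: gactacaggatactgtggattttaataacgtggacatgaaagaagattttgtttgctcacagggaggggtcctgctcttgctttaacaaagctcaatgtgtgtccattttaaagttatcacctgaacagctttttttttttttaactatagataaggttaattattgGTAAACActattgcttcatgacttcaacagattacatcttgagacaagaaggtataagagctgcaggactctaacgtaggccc

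The motifs were the TATA box (TATAAA), the CDX motif (TTTATG), the FOXA motif (TGTTTAC), the KLF motif (CCACCC), the E-box (CAGCTG) and the motif of XBP1 and ATF6 (TGACGTG). The Mptx1 window held TATAAA on the minus strand at 198 and 82 bases before the start. In the Agr2 window TTTATG lay 47 and CCACCC 72 bases before the start, both on the minus strand. The Reg4 window held TGTTTAC on the minus strand 83 bases before the start. Of 32851 such mouse windows, 12.4% held TATAAA, 10.8% TTTATG, 28.1% CCACCC and 3.17% TGTTTAC. The E-box (13% of windows) and the motif of XBP1 and ATF6 (1.65%) were in none of the windows shown. A match is a description of these letters and shows no binding.

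The whole libraries held 42003444, 55436776 and 54943483 UMIs over 4425, 8829 and 8195 barcodes in PBS, BT WT and BT mutant. Members summed to 731243, 539863 and 733640 UMIs. Their depth differed: the median member held 22319 UMIs in PBS, 5117.5 in BT WT and 10128.5 in BT mutant, and the range ran from 539 to 124953 over all libraries. The deepest cell gave 10.9%, 23.1% and 11.3% of its library's member UMIs. Between 8 and 19 barcodes were shared between a pair of libraries, and none was a member. With 1 library per group no difference could be tested. All intervals are exact 95% intervals that cover counting error only, and they say nothing of the spread between mice.

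The rule itself requires goblet genes, so their presence in members is no check of the goblet label. Of 9 Paneth cell genes, 3, 2 and 3 were detected, with 72, 69 and 66 UMIs in all. The antimicrobial ribonuclease gene Ang4 gave 70, 66 and 56 of these, in 4, 6 and 9 cells, and the others were Pnliprp2 and Mmp7. In the highest cell of each library the list reached 1338, 14019 and 17796 CPM (CPM being counts per total, scaled to 1000000 UMIs). Lyz1, Defa24, Defa30, Defa21, Defa22 and Mptx2 were at 0 UMIs in all 105 cells, where a count of 0 allows up to 3 UMIs in each library's sum. The third gene of the name did not hold in every library. Retnlb gave 178 CPM (149 to 211) in PBS members, 170 (137 to 209) in BT WT and 2418 (2307 to 2533) in BT mutant. It was the highest of the 3 rule genes in 0, 0 and 3 cells. Colonocyte markers summed to 3357, 2486 and 2249 CPM, against 15562, 14786 and 7680 CPM in the other goblet cells.

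With the 25% mitochondrial limit, Spink4/Mptx1 cells were a larger share of epithelial cells in PBS than in either colonized library. They were 31 of 1509 epithelial cells (2.05%, 1.40 to 2.90) in PBS, 31 of 4647 (0.667%, 0.454 to 0.946) in BT WT and 39 of 4020 (0.970%, 0.691 to 1.32) in BT mutant. Epithelial cells are those with at least 0.3% of UMIs from 8 keratin, adhesion and tight junction genes. The PBS interval lies above the other 2, which overlap each other. Among all kept cells the shares were 0.969%, 0.453% and 0.684%, in the same order. Among cells over the goblet limit the order was different, with 16.7% (11.6 to 22.8) of 186 in PBS, 3.69% (2.54 to 5.17) of 867 in BT WT and 31.8% (24 to 40.5) of 132 in BT mutant. The first order depends on the mitochondrial limit: at 10% the shares of epithelial cells were 2.48%, 2.85% and 2.63%, so PBS was no longer the highest. Fewer cells of a type and poorer recovery of the type cannot be told apart here.

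Many cells rich in the 3 genes missed the goblet limit. A further 41, 27 and 5 cells passed the 1% limit for Spink4, Mptx1 and Retnlb but not the 2% goblet limit. Mptx1 led in 40, 24 and 5 of them. With the 3-gene limit alone, 71, 58 and 43 epithelial cells qualified, or 4.71% (3.69 to 5.90), 1.25% (0.949 to 1.61) and 1.07% (0.775 to 1.44). In that wider set BT WT was above BT mutant, the reverse of the order under the full rule, with overlapping intervals both times. Within 0.25 percentage points of the 1% limit, 6, 2 and 4 members lay inside and 3, 4 and 6 goblet-limit cells outside. The lowest members held 1.0%, 1.01% and 1.12%, and the highest cells left out 0.984%, 0.969% and 0.945%.

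The members held a large part of these transcripts. In PBS, BT WT and BT mutant they carried 41.9%, 41.6% and 71.2% of all Spink4 UMIs of the kept cells, and 36.7%, 28.9% and 71.2% of Mptx1. For Retnlb the shares were 41.7%, 33.0% and 75.7%. All cells over the 3-gene limit carried 90.9%, 83.8% and 76.5% of the Mptx1 UMIs.

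Of the 3 rule genes, Mptx1 led in most PBS and BT WT members and Spink4 in most BT mutant members. Mptx1 led in 24 of 31, 28 of 32 and 17 of 42 members, and Spink4 in 7, 4 and 22. Per cell, Mptx1 ran from 0% of UMIs through a median of 2.10% to 13.6% in PBS, from 0.00915% through 2.88% to 15.1% in BT WT, and from 0% through 0.436% to 19.99% in BT mutant. The ranges overlap. BT mutant held 15 members (35.7%, 21.6 to 52.0) with under 0.1% Mptx1, against 2 in PBS (6.45%, 0.791 to 21.4) and 1 in BT WT (3.13%, 0.0791 to 16.2). These low cells were not shallow: their median was 15247 UMIs.

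Spink4 per cell ran from 0% through a median of 0.475% to 2.05% in PBS, from 0% through 0.712% to 3.52% in BT WT, and from 0% through 1.27% to 3.59% in BT mutant. The median was lowest in PBS and highest in BT mutant, and the ranges overlap. At least 1% Spink4 was found in 11 of 31, 12 of 32 and 30 of 42 members. A cell with little Mptx1 and Retnlb can only enter through Spink4, so this count and the Mptx1 count are tied by the rule.

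Retnlb was scarce in members of PBS and BT WT. The per-cell percentage had a median of 0% in PBS and BT WT, with highest values of 0.156% and 0.260%, and a median of 0.137% and a highest value of 1.16% in BT mutant. A Retnlb UMI was found in 15 of 31 (48.4%, 30.2 to 66.9), 5 of 32 (15.6%, 5.28 to 32.8) and 38 of 42 members (90.5%, 77.4 to 97.3). Thinned to 1000 UMIs per cell, which left out 2, 6 and 7 shallower members, the shares were 17.2%, 7.69% and 60.0%. In B cells, which should lack the gene, they were 0.384%, 0% and 1.14% at the same depth. Other goblet cells gave 6.25%, 2.02% and 20.7%. Unthinned, 1.14%, 0.114% and 2.97% of B cells had a Retnlb UMI, at median depths of 3679, 2984 and 3009 UMIs. For Mptx1, found in 30 of 31, 32 of 32 and 35 of 42 members, the thinned shares were 89.7%, 96.2% and 65.7% in members and 12.1%, 12.95% and 10.1% in B cells. In other goblet cells they were 50%, 28.6% and 64.6%, so in BT mutant Mptx1 was found about as often outside the members. Unthinned, it was found there in 90% of other goblet cells and 83.3% of members. For Spink4 the thinned shares were 79.3%, 80.8% and 94.3% in members and 3.61%, 2.33% and 4.55% in B cells. In other goblet cells Spink4 was at 5.47%, 4.80% and 14.6%.

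**Figure D1:**
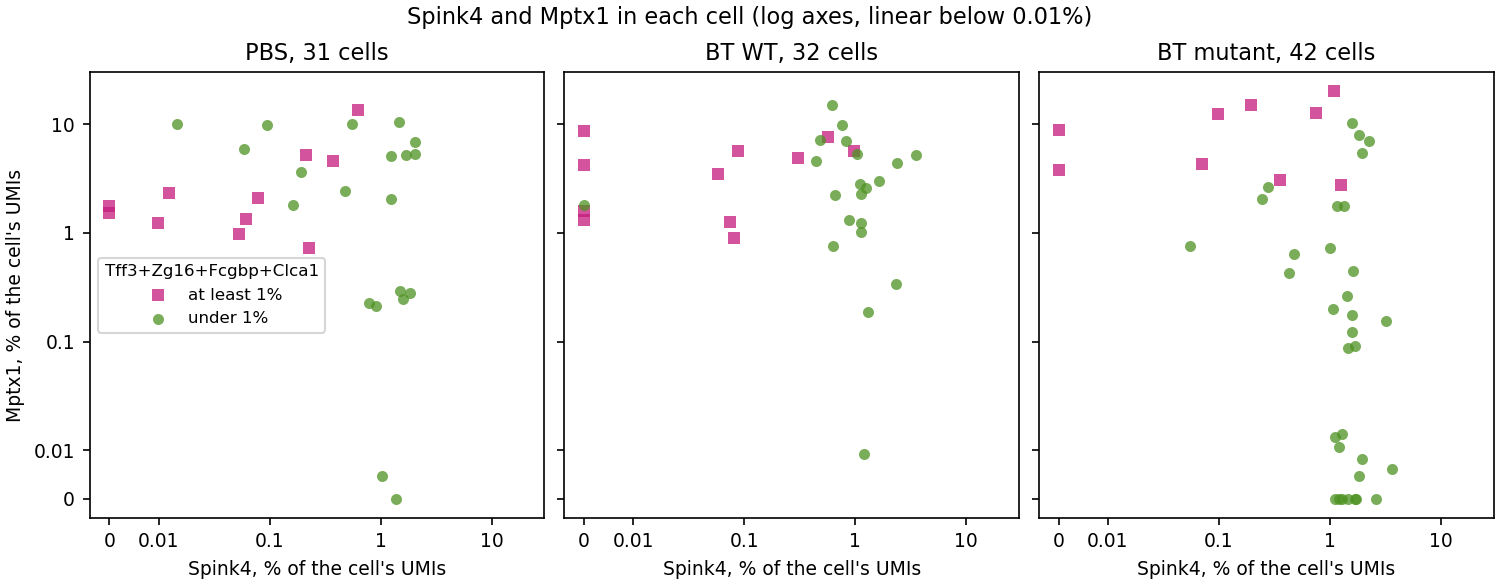
Percent of each member's UMIs from Spink4 (horizontal) and Mptx1 (vertical), on log axes that turn linear near 0, 1 point per cell, for the 31 PBS, 32 BT WT and 42 BT mutant cells. Squares are cells with at least 1% of UMIs from Tff3, Zg16, Fcgbp and Clca1, circles the others. In BT mutant 15 cells lie under 0.1% Mptx1, against 2 and 1 in the other libraries.

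Agr2 was found in nearly every member and Reg4 in fewer. Agr2 per cell had medians of 0.747%, 0.752% and 1.07%, and 31 of 31, 32 of 32 and 41 of 42 members held a UMI. A Reg4 UMI was found in 19, 14 and 16 members. Reg4 summed to 454 CPM (407 to 506) in PBS, 889 (811 to 972) in BT WT and 240 (206 to 278) in BT mutant. Other goblet cells were at 0, 6.94 and 91.9 CPM, below the members in each library. Thinned to 1000 UMIs, Reg4 was found in 24.1%, 26.9% and 17.1% of members and 0.538%, 0.525% and 0% of B cells. Kit, the receptor tyrosine kinase used to sort deep crypt secretory cells, was found in 26, 20 and 28 members at 216, 146 and 127 CPM.

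**Figure D2:**
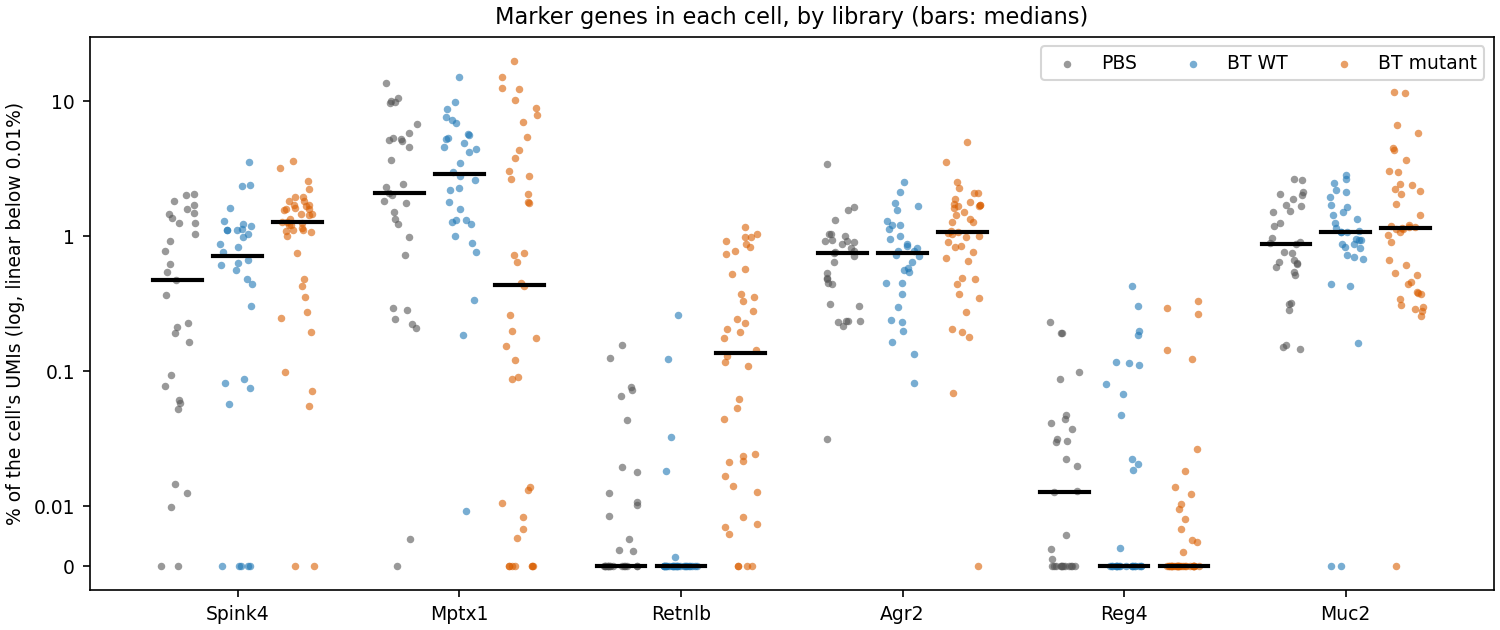
Percent of UMIs of the marker genes and Muc2 in every member (log axis, linear near 0), by library, with 1 point per cell and bars at the medians. Retnlb has a median of 0% in PBS and BT WT and 0.137% in BT mutant, while Agr2 medians lie between 0.747% and 1.07%.

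The members were not uniform in mucus genes. Tff3, Zg16, Fcgbp and Clca1, secreted products of mature goblet cells, made up at least 1% of UMIs in 11 of 31, 11 of 32 and 9 of 42 members. The others held less, and 15, 12 and 21 held under 0.1%. In members with under 1%, median Spink4 was 1.14%, 1.11% and 1.45%, and median Agr2 0.890%, 0.844% and 1.34%. In members with at least 1%, median Spink4 was 0.0614%, 0.0747% and 0.196%, and Agr2 0.452%, 0.448% and 0.370%. The mucus-rich members were shallower, with median UMIs of 18184, 1498 and 1409 against 23479.5, 19071 and 14476. Taking out the barcodes with the highest doublet scores removed 0, 0 and 3 members, whose median was 1204 UMIs. The part of shared droplets and of depth in this split was not tested beyond that. Spink4, Agr2, Tff3, Zg16, Fcgbp and Clca1 all count toward the goblet limit of the rule. A member low in the mature products had to reach that limit through the other goblet genes, and a member low in Spink4 without it. The rule itself therefore bears on this split.

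Spink4 and the mature products ran in opposite directions across members. Spearman's rho was -0.53 in PBS (31 cells), -0.62 in BT WT (32) and -0.53 in BT mutant (42). Spink4 and Agr2 ran together, with rho of 0.72, 0.49 and 0.50. Mptx1 and the mature products had rho of 0.78 in BT mutant, -0.02 in PBS and 0.26 in BT WT, and the difference between libraries was not tested. Its rho with Agr2 was -0.68 in BT mutant and -0.10 and 0.14 in the others. The percentages share each cell's total, and all cells passed 1 rule, so these are descriptions.

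Within BT mutant, cells with at least 1% Mptx1 (17) and cells with under 0.1% (15) differed in several secreted products. The first had a median of 4593 UMIs and the second 15247. Retnlb was 4811 CPM in the Mptx1-rich cells and 450 in the Mptx1-poor cells. Reg4 was 611 and 38.8, the chloride channel regulator Clca1 5136 and 19.4, and Fcgbp, which binds mucin, 3597 and 167. Muc2 was 21192 and 9635 in the sums but 16462 and 16627 with equal weight per cell. Agr2 went the other way, at 6772 and 18335. Kit was 143 and 140. Both subsets come from 1 library and were chosen on Mptx1. Clca1, Fcgbp, Muc2, Agr2 and Spink4 all count toward the goblet limit of the rule. Cells low in Mptx1 and Retnlb could enter only through Spink4, which fills part of that limit. Mptx1-rich cells low in Spink4 had to reach it through the other goblet genes, so the rule itself bears on these gaps.

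Beside other goblet cells of the same library, the members held less of the mature mucus products and more of the protein-making machinery. Other goblet cells are the 155, 835 and 90 kept cells over the goblet limit with under 1% from Spink4, Mptx1 and Retnlb. Because the rule split these cells, everything in this comparison is a description. The BT mutant reference was mixed: its enteroendocrine markers summed to 9621 CPM, against 8.63 in PBS and 17.3 in BT WT. Its 5 deepest cells gave 44.2% of its UMIs, against 22.5% in PBS and 5.19% in BT WT. The part of this mixture in the BT mutant gaps was not tested. Other goblet cells had median depths of 6611, 5119 and 4099 UMIs, against 22319, 5117.5 and 10128.5 in members. Their median mitochondrial share was 14.1%, 12.7% and 11.2%, against 7.90%, 6.08% and 7.26% in members. The part of depth and cell quality in the gaps was not tested. Of 6380 genes with at least 20 UMIs in each library's 2 sums, 1117 (17.5%) were at least 1.5-fold higher in members in all 3 libraries and 609 (9.55%) at least 1.5-fold lower, with a median log2 ratio of 0.16. Ratios here and below are log2 of CPM plus 10.

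Zg16, a lectin that binds bacterial cell walls, was 15364, 5533 and 507 CPM in members and 59067, 31181 and 16716 CPM in other goblet cells. The trefoil peptide Tff3 was 4351, 2801 and 334 CPM against 35859, 23366 and 17747. Muc2, the gel-forming mucin, differed less, at 7769, 9786 and 15675 CPM against 11960, 18310 and 21260. Of 10 secreted mucus components, 1 was higher in members and 6 lower in all libraries (median -2.66). The one higher was Klk1, a kallikrein protease, at 2750, 2908 and 1880 CPM against 1541, 317 and 597. Pigr, the receptor that carries IgA to the lumen, was 3605, 2912 and 2409 CPM against 629, 831 and 1467.

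Genes of protein entry into the endoplasmic reticulum and onward traffic were higher in members for 21 of 37 and lower for 3 (median 1.07). Sec61b, a subunit of the translocation channel, was 749, 911 and 1153 CPM against 128, 102 and 474. Of 30 unfolded-protein and folding genes 12 were higher and 0 lower (median 0.65). Among them were Xbp1, the factor that expands the secretory apparatus, and the isomerases Pdia3, Pdia4, Pdia5, Pdia6 and P4hb. Nuclear-encoded respiratory chain genes were higher for 25 of 39 and lower for 0 (median 0.96). Mitochondrially encoded genes were higher for 0 of 13 and lower for 4.

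Genes of the lower crypt were also higher in members than in other goblet cells. Of 9 deep crypt secretory and Paneth cell genes 5 were higher and 0 lower (Reg4, Kit, Sox9, Tmsb10 and Cd24a, median 1.25). Sox9, a crypt transcription factor, was 231, 202 and 175 CPM against 3.93, 22.9 and 93.5. Of 14 Wnt target and stem cell genes 9 were higher, and of 11 cell cycle genes 10 (medians 1.26 and 1.5). The named Wnt targets were Axin2, Sox9, Ephb2, Ccnd2, Lrig1, Cdca7, Slc12a2, Sox4 and Rgmb. Upper-crypt genes went the other way, with 0 of 12 higher and 10 lower (median -2.21). Krt20, the keratin of differentiated cells, was 6.84, 9.26 and 21.8 CPM against 500, 460 and 368.

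The 10 genes with the widest gap in each direction were ranked by the least extreme library. Among the 10 highest were Selenom, a selenoprotein of the endoplasmic reticulum (607, 837 and 928 CPM against 31.4, 47.9 and 246), and Ramp1, a subunit of the CGRP receptor (543, 802 and 379 against 87.1, 73.9 and 108). Gmds, which makes GDP-fucose, was 434, 513 and 477 CPM against 64.4, 67.8 and 157. Tmem258, Ostc, Ssr2, Cnpy2, Fxyd3, H2afz and Fkbp4 completed the list. Among the 10 lowest were Spink1, a trypsin inhibitor related to Spink4 (710, 541 and 109 CPM against 11602, 5315 and 3663), the acute-phase gene Saa1 (131, 209 and 125 against 4400, 5553 and 2373) and Mxd1, which opposes Myc (31.5, 48.2 and 43.6 against 724, 1394 and 727). Slfn4, Ly6m, Ahnak2, Myo15b, Krt20, Cyp2d12 and Cyp2d34 were the others, and reads of the Cyp2d family may be split among near copies.

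**Figure D3:**
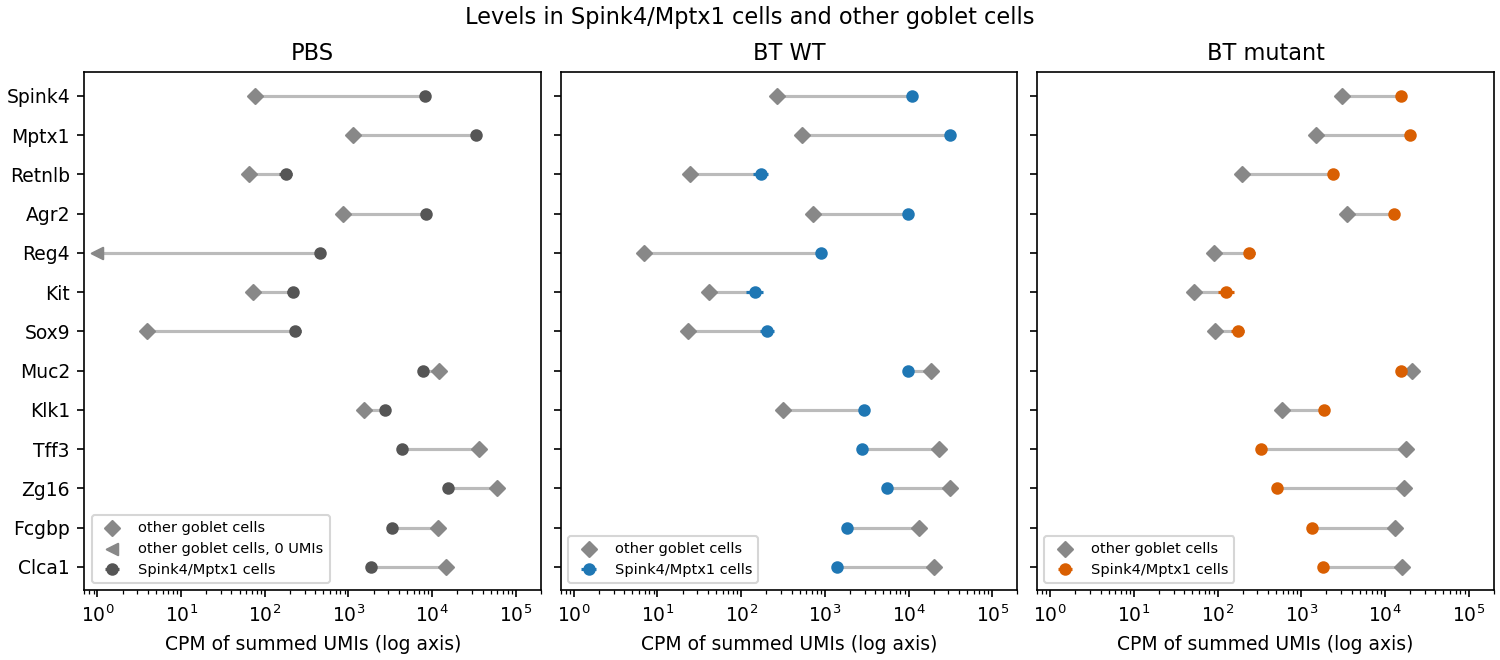
Level in CPM (log axis) of marker, mucus and crypt genes in members (circles, with Poisson intervals) and in other goblet cells (diamonds; an arrow for 0 UMIs) of each library. Zg16 and Tff3 lie lower in members in all 3 libraries, and Agr2, Sox9, Reg4 and Klk1 higher.

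Between libraries, Retnlb was the marker that differed most in BT mutant members. It was 14.2-fold higher than in BT WT (11.5 to 17.7) and 13.6-fold higher than in PBS (11.4 to 16.4). For BT WT over PBS the Retnlb ratio was 0.959 (0.726 to 1.26), with a UMI in 5 of 32 and 15 of 31 members. Retnlb, Spink4 and Mptx1 are genes of the rule, so their ratios between members are a description. Spink4 summed to 8241, 11136 and 15557 CPM, so BT mutant was 1.40-fold above BT WT (1.35 to 1.44) and 1.89-fold above PBS (1.83 to 1.95). Mptx1 summed to 33122, 31541 and 19769 CPM and was 1.60-fold lower in BT mutant than in BT WT (1.56 to 1.63). That Mptx1 gap is -0.67 on the log2 scale and -0.37 when each cell weighs the same, under 1.5-fold. With a 2% limit for the 3 genes, Mptx1 turned to 0.24, and without the mucus-rich members it was -1.18. The PBS library enters 2 of these comparisons and so does each of the others.

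Reg4 was 1.96-fold higher in BT WT than in PBS (1.70 to 2.26) and 3.71-fold lower in BT mutant than in BT WT (3.11 to 4.43). With equal weight per cell the first was 0.54 on the log2 scale, under 1.5-fold, and the second -0.81. Muc2 and Zg16 are goblet genes of the rule, so their ratios between members are a description too. Muc2 was 1.60-fold higher in BT mutant than in BT WT and 2.02-fold higher than in PBS. Zg16 was 10.9-fold lower in BT mutant than in BT WT (9.79 to 12.2), but -0.75 on the log2 scale with equal weight. In members with under 1% mature products Zg16 was 99.2, 163 and 12.7 CPM, and in mucus-rich members 41798, 43825 and 3508 CPM. With equal weight per cell the mucus-rich members were at 53499, 27705 and 27388 CPM, and the gap between BT WT and BT mutant was not there. In the mucus-poor members Retnlb was 209, 190 and 1904 CPM and Reg4 632, 1012 and 260. In the mucus-rich members Retnlb was 123, 30.1 and 5541 CPM, and Reg4 146, 15.1 and 116 CPM from 39, 1 and 12 UMIs. BT WT was thus highest for Reg4 in the first subset and lowest in the second.

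Across genes, 634 of 6305 (10.1%) were at least 1.5-fold higher in BT mutant than in BT WT members and 560 (8.88%) lower, with a median of 0.03. Of 19 immediate early and dissociation stress genes, 2 were higher and 15 lower (median -1.01, and -1.0 with equal weight). Atf3, a stress-induced factor, was 4.70-fold lower (4.03 to 5.49) and Fos 2.58-fold lower (2.35 to 2.84), at 2598, 2351 and 912 CPM over the 3 libraries. The 2 higher were the heat shock genes Hspa1a and Hspa1b, of which Hspa1a was -0.77 on the log2 scale with equal weight. Per cell, the list's summed level had medians of 13994, 15327 and 5288 CPM with overlapping ranges. In other goblet cells the sums were 11945, 10957 and 9521 CPM, and in the remaining cells 13546, 12158 and 12936. The part of tissue dissociation in the list's level was not tested.

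Against PBS, BT mutant members had 618 of 6911 genes higher (8.94%) and 739 lower (10.7%), with a median of -0.0031. Stress genes were again lower, 15 of 20, with 1 higher (median -1.11). BT WT against PBS had 417 of 6306 genes higher (6.61%) and 654 lower (10.4%), with a median of -0.03. There 0 of 18 stress genes passed 1.5-fold in either direction. The 3 comparisons share libraries and are not independent of each other.

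**Figure D4:**
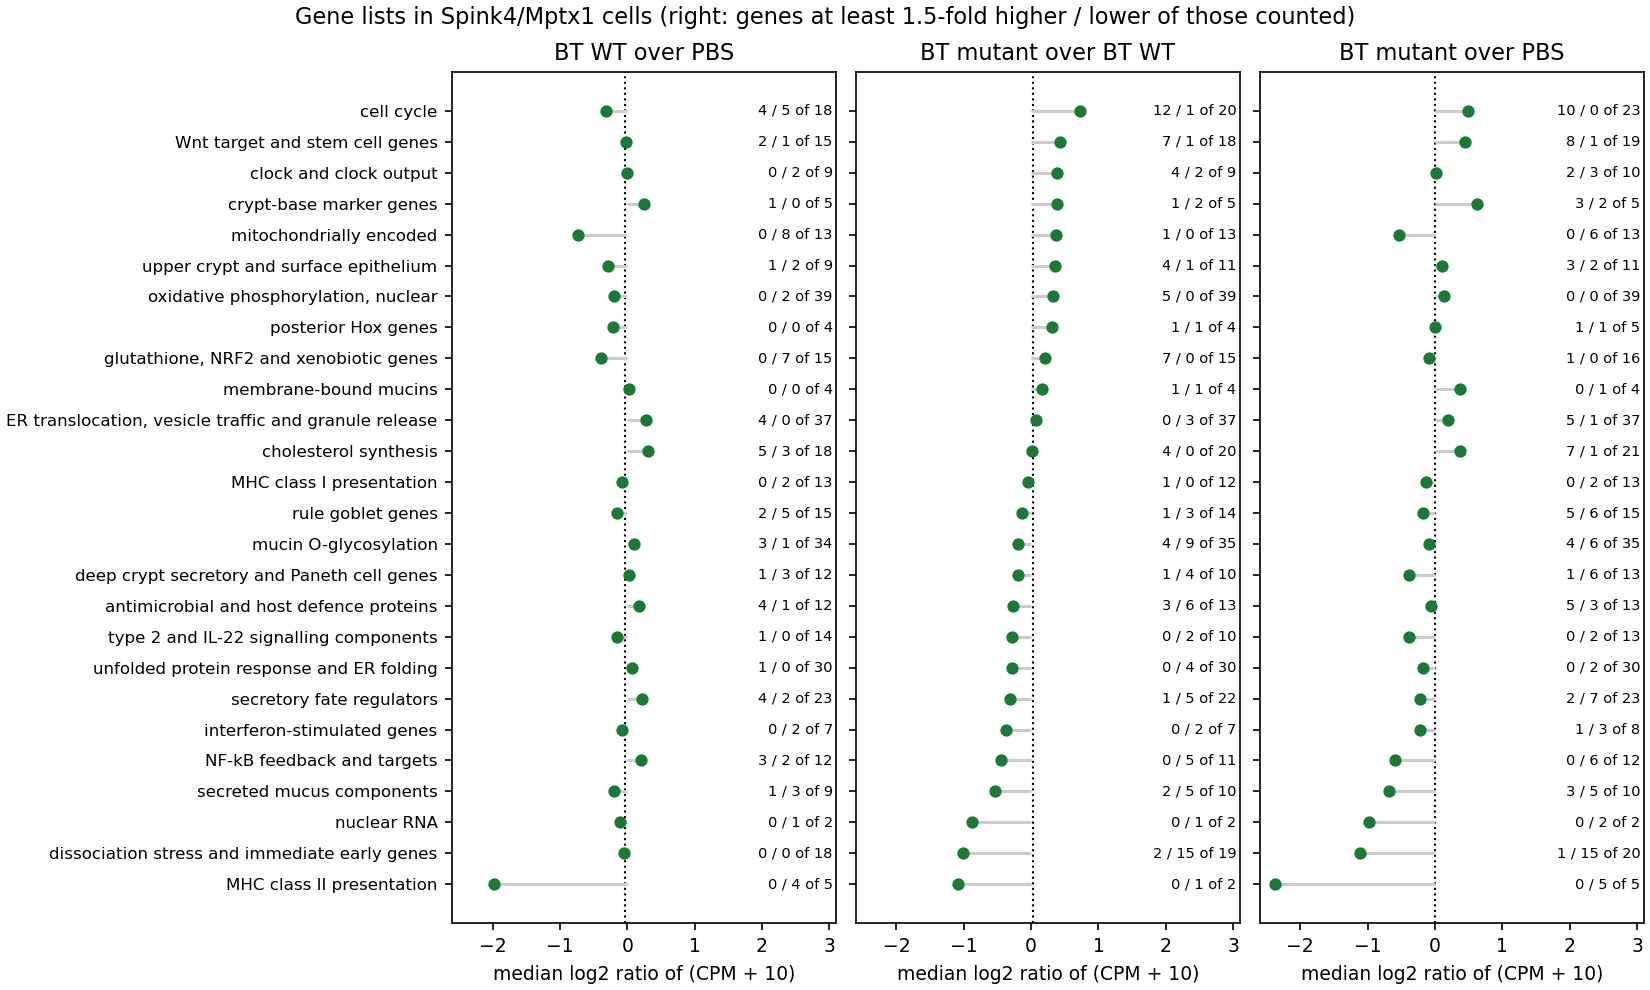
Median log2 ratio of each gene list in members in the 3 pairs of libraries, with the genes past 1.5-fold in each direction printed at the right and a dotted line at the median of all genes. Stress genes lie at -1.01 in BT mutant over BT WT and -1.11 over PBS.

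More genes of division and of the stem cell zone were higher than lower in BT mutant members. Of 20 cell cycle genes 12 were higher than in BT WT and 1 lower (median 0.73, and 0.63 with equal weight). The proliferation antigen gene Mki67 was 53.3, 24.1 and 106 CPM. The 7 cycling markers together were 168, 306 and 384 CPM, with a UMI in 12, 5 and 15 members. Against PBS 10 of 23 were higher (median 0.50), but the median was 0.08 with equal weight, and Mki67 turned from 0.88 to -0.39. Only 1 of those 10 genes stayed past 1.5-fold with equal weight. Of 18 Wnt target and stem cell genes 7 were higher than in BT WT and 1 lower (median 0.43): Ascl2, Axin2, Smoc2, Cd44, Ephb3, Sox4 and Aqp4. The 1 lower was the cyclin Ccnd2. The stem cell marker list summed to 677, 539 and 656 CPM in members and 214, 121 and 349 in other goblet cells. Counts are small, with Ascl2, the stem cell factor, at 5, 10 and 35 UMIs and Lgr5 at 10, 3 and 11.

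Secretory fate regulators differed in both directions. Atoh1 and Spdef are goblet genes of the rule, so their levels are a description. Atoh1, which sets the secretory fate, was 127, 113 and 88.6 CPM, with no gap of 1.5-fold. Spdef, which drives goblet maturation, was 142, 250 and 273 CPM, and Creb3l1, which drives secretory capacity, 335, 578 and 473. In BT WT over PBS 4 of 23 fate genes were higher (Spdef, Foxa3, Creb3l1 and Creb3l4) and 2 lower (Dll1 and Mecom). With equal weight per cell Spdef turned from 0.77 to -0.22 on the log2 scale, Creb3l1 was 371 against 310 CPM, and 2 of the 4 stayed past 1.5-fold. In BT mutant over BT WT 1 of 22 was higher (Mecom) and 5 lower (Klf4, Hes1, Dll4, Id1 and Id3, median -0.31). Of those 5, 3 stayed past 1.5-fold with equal weight, while Id1 and Id3 turned to 0.55 and 1.78. Klf4, a goblet differentiation factor, was 2.79-fold lower (2.31 to 3.38).

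Antimicrobial genes did not share a direction. In BT mutant over BT WT 3 of 13 were higher (Retnlb, Itln1 and Duox2) and 6 lower (Ang4, Lypd8, Saa1, Sprr2a3, Zg16 and Ccl6), with a median of -0.27, or 0.12 with equal weight per cell. Ang4 turned from -0.62 to 0.12 and Duox2 was 0.35 under equal weight. The chemokine Ccl6 was 711, 1035 and 210 CPM. In BT WT over PBS 4 of 12 were higher (Saa1, Wfdc2, Sprr2a3 and Ccl9) and 1 lower (Zg16), and 2 of the 4 stayed past 1.5-fold with equal weight. NF-kB feedback and target genes were lower in BT mutant for 5 of 11 against BT WT (median -0.44), with 0 higher, and for 3 with equal weight (median -0.12). The inhibitor gene Nfkbia was 312, 493 and 179 CPM.

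Mucin O-glycosylation genes were lower in BT mutant than in BT WT for 9 of 35 and higher for 4 (median -0.19). B3gnt7, which extends glycan chains, was 435, 713 and 183 CPM, 3.9-fold lower (3.20 to 4.79). Of 30 unfolded-protein genes 4 were lower (Atf6, Creld2, Dnajb9 and Derl2) and 0 higher (median -0.28), and 2 stayed past 1.5-fold with equal weight. Nuclear-encoded respiratory genes were higher for 5 of 39 and lower for 0. Glutathione and NRF2 target genes were lower in BT WT than in PBS for 7 of 15 and higher in BT mutant than in BT WT for 7 of 15. The glutathione transferase gene Mgst3 was 245, 106 and 176 CPM and Mgst1 46.5, 33.3 and 92.7 CPM. Both comparisons use the BT WT library, which has the fewest member UMIs.

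Mitochondrially encoded genes were lower in BT WT than in PBS for 8 of 13 (median -0.73) and higher for 0, and lower in BT mutant than in PBS for 6 of 13 (median -0.54). The median mitochondrial share per member was 7.90%, 6.08% and 7.26%. Cholesterol synthesis genes were higher in BT WT than in PBS for 5 of 18 and lower for 3 (median 0.30), and higher in BT mutant than in PBS for 7 of 21 and lower for 1 (median 0.37). Hmgcs1, an early enzyme of that pathway, was 41.0, 94.5 and 92.7 CPM. Membrane-bound mucins were few: Muc13 was 488, 537 and 281 CPM and Muc4 228, 326 and 270. Of the posterior Hox genes, Hoxb13 was 190, 217 and 72.2 CPM, but its gap between BT mutant and BT WT was -1.46 on the log2 scale and -0.10 with equal weight per cell.

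Among deep crypt secretory and Paneth cell genes, more were lower than higher past 1.5-fold in the sums of each comparison. Kit was 1.70-fold lower in BT mutant than in PBS, or -0.45 on the log2 scale with equal weight, under 1.5-fold. Cd24a, a surface marker of crypt-base cells, was 494, 647 and 695 CPM and Tmsb10 1997, 1997 and 2888. The Notch ligand Dll4 gave 22, 20 and 3 UMIs and Dll1 21, 8 and 8. Of the list, Reg4 included, 1 of 12 was higher (Reg4) and 3 lower in BT WT over PBS (median 0.03). In BT mutant over BT WT 1 of 10 was higher (Itln1) and 4 lower, Reg4 among them (median -0.20). In BT mutant over PBS 1 of 13 was higher (Itln1) and 6 lower, again with Reg4 (median -0.39). With equal weight per cell these medians were -0.14, 0.02 and 0.15, opposite in sign, and 2 of the 6 lower genes in BT mutant over PBS stayed past 1.5-fold.

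MHC class II genes were lower in BT WT than in PBS for 4 of 5 (median -1.98). Of the 342 class II UMIs in PBS members, 277 (81.0%) sat in 4 cells with at least 3 UMIs of B cell markers. Without those cells class II was 110 CPM in PBS, 106 in BT WT and 54.5 in BT mutant, so the gap to BT WT was not there.

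Single cells carried several of the widest gaps. In BT mutant members Pyy, Insl5, Gcg and Chgb, enteroendocrine hormone and granule genes, gave 222, 93, 92 and 85 UMIs. For each gene 1 cell supplied most of them, at 99.5%, 100%, 100% and 71.8%. It was the same cell for Pyy, Insl5 and Gcg, and a different cell for Chgb. Of the 582 enteroendocrine marker UMIs, the highest member held 435, and 3 members held at least 3. Enteroendocrine markers together were 793 CPM in BT mutant members and 9621 CPM in its other goblet cells. BT WT members had 0 UMIs of each, which puts Pyy at least 54.5-fold higher when its sum is set to the floor of 3 UMIs. Hist1h2ap was 395, 22.2 and 762 CPM, and 1 cell gave 75.4% of the PBS UMIs. Histone copies are close in sequence, so its reads are uncertain. Txndc16 (87.9%) and Mrpl9 (74.8%) also rested on 1 PBS cell.

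Named genes spread over more cells gave further differences. In BT WT over PBS, colipase (Clps) was 5.93-fold higher (3.41 to 10.9) and uroguanylin (Guca2b) 4.49-fold higher (2.65 to 7.95). Ccn3, Col8a1, Ceacam10, Cd177, Ech1 and Ffar2, a receptor for short-chain fatty acids, were 3.07, 2.67, 2.61, 2.36, 2.30 and 2.30-fold higher. Of these Cd177 was 0.45 on the log2 scale with equal weight per cell, under 1.5-fold. Best2, a goblet cell anion channel, was 289, 92.6 and 13.6 CPM, and Hsd11b2, which inactivates corticosterone, 1032, 443 and 207 CPM. Cldn4, a claudin of tight junctions, was 144, 48.2 and 6.82 CPM. These 3 genes were highest in PBS and lowest in BT mutant.

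In BT mutant over BT WT, Sval1 was 5.28-fold lower (4.30 to 6.53), at 1808, 843 and 159 CPM. The growth factor gene Hbegf was 714, 554 and 116 CPM and Thbs1, a matrix protein gene, 532, 420 and 84.5 CPM. The heat shock co-chaperone gene Dnajb1 was 193, 276 and 60.0 CPM. Rep15 and Spink1 were 4.58-fold and 4.96-fold lower, and Spink1 was 0.079 on the log2 scale without the mucus-rich members. For Rep15 1 cell gave 46.9% of the BT WT UMIs, and for Hbegf 1 cell gave 39.8%. With equal weight per cell their gaps were -1.40 and -1.79 on the log2 scale. Nxpe2 and Sult1a1, a sulfotransferase, were 5.89-fold (3.22 to 11.8) and 3.92-fold (2.69 to 5.88) higher. Against PBS, Plet1 was 7.62-fold higher (4.35 to 14.4), and amphiregulin (Areg) was 7.43-fold lower (5.37 to 10.5) and F3, tissue factor, 13.7-fold lower. For Areg 1 cell gave 41.2% of the PBS UMIs, and the gap was -1.55 on the log2 scale with equal weight per cell.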

How the data were processed

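Colon cells of 3 libraries (PBS, BT WT and BT mutant, 1 each) were prepared with 10x 3' v3 reagents, per the labels' protocols. The deposited files are matrices of whole-number UMI counts for 32285 genes, not normalized, and, per the file headers, come from Cell Ranger 5.0.0. STAR and mm10 are named in the submitters' processing notes. The sources used here do not give the calling of cells, the annotation or a doublet step.

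The members and gene lists were chosen with earlier results of these data known. Counts were summed over members per library and divided by the sum (CPM). Ratios are log2 of CPM plus 10, and a gene counted as higher or lower at 1.5-fold among genes with at least 20 UMIs in both sums together. Folds are ratios of CPM with exact conditional binomial intervals, shares have Clopper-Pearson and CPM Poisson intervals, all at 95%. A library needed 20 members. 3' tags count 1 per transcript whatever its length. Doublets were kept. A removal of the highest Scrublet scores (0.8% per 1000 barcodes) took 0, 0 and 3 members. 26 lists were read, and 6 of their symbols matched no gene. Named genes were the 8 largest ratios in each direction per comparison (5 for BT mutant over PBS, 10 against other goblet cells) with 50 or more UMIs, 100 or more CPM on the higher side, 1 outside the interval, and a level there of 50% or more of that in the library's other cells. Rule genes, ribosomal, mitochondrial, immune receptor and predicted genes and markers of non-epithelial cells were left out of that choice. List members and subsets of members were named after their values were seen. The intervals were tested on simulated data. Python 3.11.15, numpy 2.4.6, scipy 1.17.1, pandas 2.3.3, scanpy 1.11.5 and matplotlib 3.10.9 were used.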

Additional observations from a re-analysis of the deposited data

How the results depend on the processing

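No paired analysis was possible because each group had 1 library, and for the same reason no replicate could be left out. The share of epithelial cells moved most with the limits. In PBS it was 1.19% at a 2% limit for Spink4, Mptx1 and Retnlb, 0.663% at a 5% goblet limit and 3.44% with at least 1000 genes. In BT WT it was 2.85% at a 10% mitochondrial limit, 0.947% at a 0.5% limit for the 3 genes, 0.151% at the 5% goblet limit and 0.443% with at least 1000 genes. In BT mutant it was 2.63% at the 10% mitochondrial limit, 0.686% without one, 1.34% and 0.522% at 3-gene limits of 0.5% and 2%, and 0.448% at the 5% goblet limit. Comparisons needed 20 members, so PBS (18) did not enter at the 10% mitochondrial or the 2% limit, BT WT (18) not with 1000 genes, and no library (10, 7 and 19) at the 5% goblet limit. Genes at least 1.5-fold higher and lower in BT WT over PBS numbered 1188 and 1563 with equal weight per cell, 43 and 37 thinned to 1000 UMIs, 651 and 987 with a pseudocount of 1, 177 and 241 with at least 50 UMIs, and 754 and 1397 unfiltered. The shares of genes counted were 18.8% and 24.8%, 13.1% and 11.3%, 10.3% and 15.7%, 5.38% and 7.32%, and 5.60% and 10.4%. Thinning left only 327 genes to count here, and its shares were above the main 6.61% and 10.4%. Of the 417 and 654 main calls, 5 and 8 were also called after thinning. For BT mutant over BT WT the higher genes numbered 1586, 85, 960, 248 and 1298 and 419 at the 2% limit, and the lower ones 1489, 71, 277 and 926 with equal weight, thinning, 50 UMIs and no filter. As shares the higher genes were 25.2%, 23.2% (of 367 genes), 15.2%, 7.61%, 9.73% and 8.68%. The lower ones were 23.6%, 19.3%, 8.50% and 6.94%. For BT mutant over PBS the counts were 1227 and 1542, 88 and 70, 965 and 1114, 316 and 415, and 997 and 1193. These are higher and lower genes, with the settings in the order used for BT WT over PBS. The shares were 17.8% and 22.3%, 23.98% and 19.1% (of 367 genes), 13.96% and 16.1%, 8.36% and 10.98%, and 7.14% and 8.55%. After thinning the shares were again above the main ones, here 8.94% and 10.7%. Equal weight per cell turned the sign of several genes and list medians, as given above. Sign changes under other settings included Mptx1 in BT mutant over BT WT, at 0.24 with the 2% limit, and Spink1 there, at 0.079 without the mucus-rich members. They also included the secreted mucus median over PBS, at 0.18 without those members, and the NF-kB median over PBS, at 0.44 after thinning. The cause of these changes was not tested. The alternatives without the deepest cells and without mucus-rich members were chosen after seeing the data. Depth limits most single genes, since 5 cells gave 37.6%, 55.9% and 43.1% of the members' UMIs.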
